A study of Homo sapiens with 5 samples.

Results

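The ID inhibitors (ID1, ID2, ID3 and ID4) and the helix-loop-helix repressor BHLHE40 were examined in TF-1 cells. TF-1 is an established human erythroleukaemia line that serves as a model of erythroid progenitors. The members were every probe set whose single gene symbol on the platform was one of these 5 symbols, which gave 9 of the 19065 probe sets with a single symbol. The genes were chosen from values of these same arrays, above all the ID2 difference between mutant SCL and vector cells, so the values below are descriptions and carry no test. There was 1 array in each of 5 groups. These were cells with a retrovirus that expresses a DNA-binding-defective form of SCL (DbSCL, called mutant SCL here) given Steel factor (SF), vector cells given SF, mutant SCL cells given erythropoietin (Epo), vector cells given Epo, and vector cells given GM-CSF. The vector was an MSCV retrovirus with a GFP marker in every case. SCL is the product of TAL1, and the labels mention no removal of the cells' own copy. Every culture went overnight without growth factor and then received its cytokine for 6 h. SF was used at 20 ng/mL and GM-CSF at 5 ng/mL, and no dose is stated for Epo. The labels do not say whether the transduced cells were clones or pools, and there was no array of unstimulated cells.

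ID proteins carry a helix-loop-helix dimerization domain without the basic region that touches DNA. They pair with E proteins, the shared partners of tissue-restricted basic helix-loop-helix factors such as SCL, and the resulting dimer cannot bind the E-box, the DNA element read by this family. BHLHE40 has a basic region, binds E-boxes as a dimer and represses transcription, also within the circadian clock. In erythroid cells SCL binds DNA as a dimer with an E protein, within a complex that holds LMO2, LDB1 and GATA1, so ID proteins bear on the partner that SCL needs.

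The upstream sequences of ID2 and BHLHE40 are shown because these were the members with the largest differences, and because E-boxes are what this family reads. Each is the 250 bases before the annotated start of the gene, from RefSeq on GRCh38.p14, plus strand, with every match to the E-box core CANNTG in capitals. The ID2 window lies at chr2:8681806-8682055 and the BHLHE40 window at chr3:4979187-4979436.
ID2: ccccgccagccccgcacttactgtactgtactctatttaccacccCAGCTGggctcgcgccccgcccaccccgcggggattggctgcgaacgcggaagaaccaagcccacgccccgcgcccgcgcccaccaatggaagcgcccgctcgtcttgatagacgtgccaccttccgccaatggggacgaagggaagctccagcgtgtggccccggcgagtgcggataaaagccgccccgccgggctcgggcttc
BHLHE40: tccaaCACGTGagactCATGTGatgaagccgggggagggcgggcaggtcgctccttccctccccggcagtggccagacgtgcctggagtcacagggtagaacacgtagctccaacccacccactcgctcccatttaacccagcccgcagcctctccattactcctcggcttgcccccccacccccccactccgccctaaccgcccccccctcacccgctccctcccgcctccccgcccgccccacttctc
The ID2 window held 1 E-box core, CAGCTG, whose first base lies 205 bases before the start. The BHLHE40 window held 2, CACGTG at 245 bases and CATGTG at 234 bases before the start. CACGTG is the form that BHLHE40 itself is known to bind. A CAGCTG also lay 21 bases before the start of ID4, while the windows of ID1 and ID3 held no CANNTG. Of 35116 such windows over all genes, 61.8% held CANNTG at least once and 28.3% at least 2 times, 6.34% held CACGTG and 14.0% held CAGCTG. These forms read the same on both strands, and the narrower ones were counted within CANNTG too. A further E-box form, CAGATG, which SCL dimers are known to bind, had no match on either strand of the 5 windows and occurred in 12.2% of all windows. The GATA factor motif was searched only as AGATAA, found in 9.17% of all windows, and as TGATAA, found in 6.66%. Both strands were read again, with no match in the 5. The forms that end in G, AGATAG and TGATAG, were not searched, and the ID2 window shown above holds a TGATAG. The absence of a match thus holds for the searched forms alone. These matches describe letters, not binding sites.

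All values are log2 signals as deposited. A floor was set at 4.45, the 40th percentile of all values other than controls, and lower values were raised to it before differences were taken. A probe set counted as different at 2-fold, a log2 difference of 1. With no replicates, the spread of a difference between 2 arrays was estimated from how far the mutant SCL differences under SF and Epo departed from each other, in 10 bins of signal. It ran from 0.13 to 0.25 and takes in any real change of the mutant SCL difference between cytokines. It leaves out shifts shared by many genes. It also leaves out, gene by gene, any difference between the mutant SCL and vector cultures that is present under both cytokines. The vector GM-CSF array did not enter that contrast, and identical deposited values may make the estimate too small. Multiples of this spread are therefore not tests.

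Some facts of the arrays bear on every comparison. The column medians lay between 4.90 and 4.99. The hybridization controls, which are added in equal amounts, averaged 10.57 on mutant SCL SF, 10.02 on vector SF, 9.78 on mutant SCL Epo, 9.58 on vector Epo and 10.53 on vector GM-CSF. For beta-actin, the excess of the 3' over the 5' probe set, which grows as RNA or its copies are cut short, was 3.33 on mutant SCL SF against 1.89 on vector SF, 3.01 on mutant SCL Epo against 2.74 on vector Epo, and 2.63 on vector GM-CSF. Of 13 erythroid and progenitor markers 9 were on the array under a single symbol, and these 9 were above the floor on all arrays, among them GATA1, KLF1 and EPOR. Of 6 monocyte and granulocyte markers 1 was, the lysozyme gene LYZ, and the mean over those markers lay between 4.19 and 4.40. Lymphoid markers on the array (8 of 9) averaged 5.22 to 5.55, and 6 of them were above the floor on all arrays. So were 3 of 4 megakaryocyte markers, with means of 5.66 to 5.94, and 3 of 5 fibroblast and endothelial ones, with means of 5.27 to 5.36. For scale, 7917 genes other than ID2, of 11963, were above the floor on all arrays by the probe set of highest mean signal. Being above the floor is thus common and does not show a cell type. The part of these array facts and markers in the results was not tested. TAL1, whose probe set of highest mean signal read 8.29 on mutant SCL SF against 8.31 on vector SF and 8.31 on mutant SCL Epo against 8.59 on vector Epo, differed there by −0.02 and −0.29. Its next brightest probe set differed by 0.06 and 0.19. Whether its probes lie within the construct was not determined here, so it does not check the labels.

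Of the 9 probe sets, 5 were above the floor on all arrays, 1 on 1 array and 3 on none. Those 5 belonged to ID1 (1), ID2 (2) and BHLHE40 (2). Signals of different probe sets depend on their probes, so their heights are not compared with each other.

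**Figure D1:**
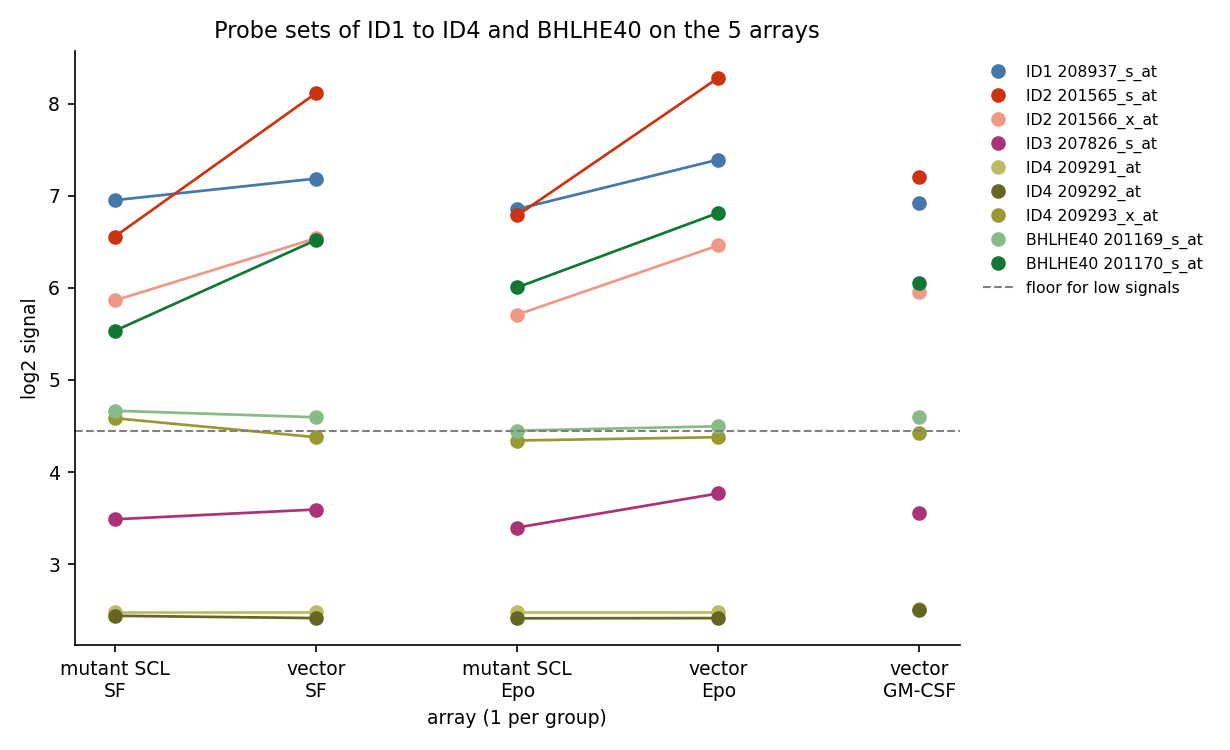
Log2 signal (vertical axis) of each of the 9 member probe sets on the 5 arrays (horizontal axis, 1 point per array, no replicates); lines join mutant SCL to vector under the same cytokine, and the dashed line is the floor of 4.45. The brighter ID2 probe set read 6.56 and 6.79 on the mutant SCL arrays and 8.11 and 8.28 on the vector arrays under SF and Epo; heights of different probe sets are not comparable.

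ID2 (chr2:8682056-8684461, plus strand), which binds E proteins and is also known to bind the retinoblastoma protein, had the largest differences of the family. Its brighter probe set, 201565_s_at, read 6.56 on mutant SCL SF, 8.11 on vector SF, 6.79 on mutant SCL Epo, 8.28 on vector Epo and 7.20 on vector GM-CSF. Both mutant SCL arrays were thus below all 3 vector arrays. With mutant SCL the signal was lower by a log2 difference of −1.56 under SF (2.94-fold) and −1.49 under Epo (2.82-fold), against an estimated spread of 0.22. Each array reads a whole culture, so less RNA per cell and fewer cells with the transcript cannot be told apart. The probe set ranked number 3 from the lowest of 11992 probe sets compared under SF and also number 3 of 11821 under Epo. The difference under SF minus that under Epo was −0.06, within its estimated spread of 0.31.

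The other ID2 probe set, 201566_x_at, carries the suffix that the array's maker gives to probes that may also match other sequences. It read 5.86 on mutant SCL SF, 6.54 on vector SF, 5.71 on mutant SCL Epo, 6.46 on vector Epo and 5.95 on vector GM-CSF. The order of mutant below vector was the same, with smaller differences of −0.67 under SF and −0.75 under Epo, each over 3 times the estimated spread of 0.18. The mutant SCL arrays again lay lowest, but the gap from mutant SCL SF up to vector GM-CSF was 0.09, under that spread. A further probe set, 213931_at, which the platform assigns to both ID2 and the pseudogene ID2B, was no member and lay between 3.39 and 3.79, below the floor on every array.

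BHLHE40 (chr3:4979437-4985323, plus strand) gave its next largest value in 201170_s_at. This probe set read 5.53 on mutant SCL SF, 6.52 on vector SF, 6.00 on mutant SCL Epo, 6.81 on vector Epo and 6.06 on vector GM-CSF. Mutant SCL SF stood lowest, mutant SCL Epo and vector GM-CSF lay 0.05 apart, and the vector arrays under SF and Epo were highest. The mutant SCL difference was −0.99 under SF (1.98-fold) and −0.81 under Epo (1.75-fold), both short of 2-fold and both over 4 times the estimated spread of 0.18. The mean of both BHLHE40 probe sets gave −0.46 under SF and −0.43 under Epo. The probe set ranked number 60 from the lowest under SF and number 89 under Epo. The second probe set, 201169_s_at, was close to the floor at 4.67, 4.59, 4.45, 4.50 and 4.59 on mutant SCL SF, vector SF, mutant SCL Epo, vector Epo and vector GM-CSF, and differed with mutant SCL by 0.07 and −0.05. Its signals were too close to the floor for a difference to be read.

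ID1 (chr20:31605289-31606510, plus strand), the member best known as a target of BMP signalling, had 1 probe set. It read 6.95 on mutant SCL SF, 7.19 on vector SF, 6.85 on mutant SCL Epo, 7.39 on vector Epo and 6.92 on vector GM-CSF. The mutant SCL difference was −0.23 under SF, 1.12 times the estimated spread of 0.21, and −0.54 under Epo, 2.58 times that spread. Neither reached 1.5-fold. The mutant SCL arrays and vector GM-CSF lay within 0.10 of each other, and the vector arrays under SF and Epo were higher.

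ID3 (chr1:23557926-23559501, minus strand) and ID4 (chr6:19837370-19842197, plus strand) gave no usable signal. ID3, a close relative of ID1 in function, lay between 3.40 and 3.77 on the 5 arrays. For ID4, 209291_at and 209292_at lay between 2.41 and 2.51, and 209293_x_at between 4.34 and 4.58, above the floor only on mutant SCL SF. That probe set entered comparisons only through the array where it was high, so its difference of 0.14 under SF has its sign from the floor. No difference is read for either gene.

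At 2-fold, 1 of the 6 member probe sets compared under SF was lower with mutant SCL, the brighter ID2 one, where 0.409% of all probe sets compared were. Under Epo it was 1 of 5, the same probe set, where 0.271% were. At 1.5-fold the counts were 3 of 6 under SF and 3 of 5 under Epo, where 3.9% and 2.75% of all probe sets were lower. In both cases these were the 2 ID2 probe sets and 201170_s_at of BHLHE40. No member probe set was 1.5-fold higher with mutant SCL, where 176 of 11992 probe sets were under SF and 88 of 11821 under Epo. Beside such counts, 0 among so few members says little. The median over those compared was −0.45 under SF and −0.75 under Epo, where the median over all probe sets was 0 in both. The 6 under SF included the ID4 probe set above the floor only on mutant SCL SF, for which no difference is read. That probe set was not compared under Epo, so the medians cover different probe sets and their gap is not read. Since the member differences were known when the genes were chosen, the shares describe the choice and support nothing.

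The 2 mutant SCL differences use separate arrays, but both set mutant SCL cells against vector cells. Any other difference between those cultures that is present under both cytokines would recur in both, so they are not a replication. At 2-fold in the same direction under both cytokines, 2 of 11677 probe sets were lower (0.0171%), and ID2 201565_s_at was 1 of them. At 1.5-fold, 64 were lower under both (0.548%), including both ID2 probe sets and 201170_s_at of BHLHE40. As the genes were chosen with these differences known, their place among the lowest describes the choice. In the plot of both differences these 3 lie on or near the line of equal differences.

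**Figure D2:**
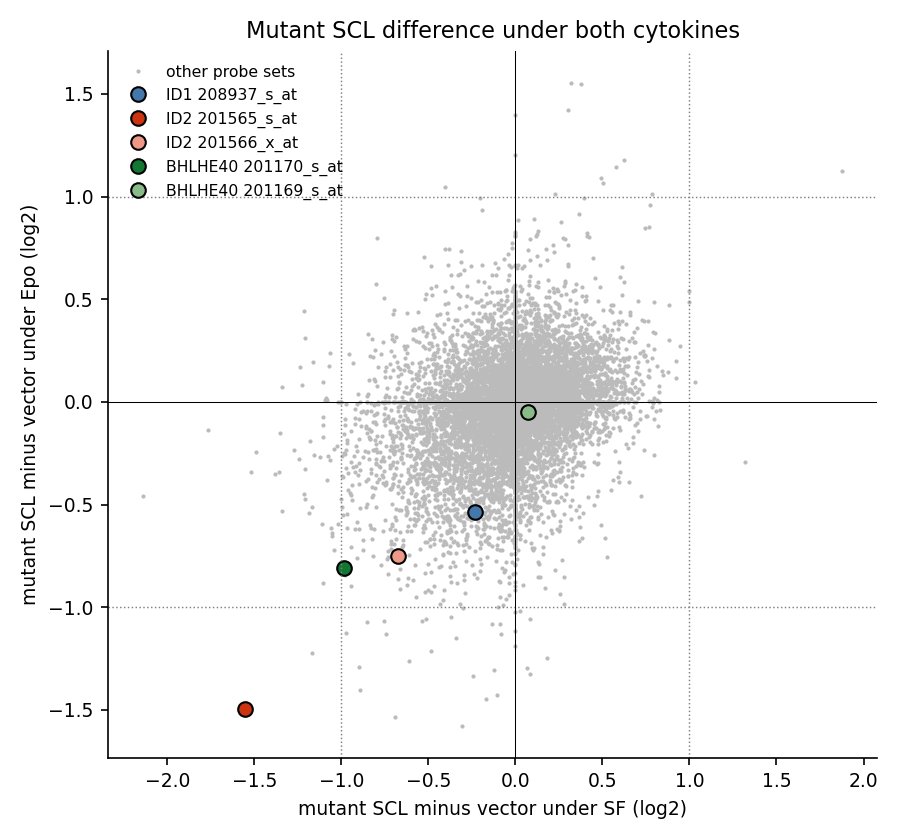
Log2 difference mutant SCL minus vector under SF (horizontal axis) and under Epo (vertical axis) for the 11677 probe sets compared under both; grey points are other probe sets, coloured points the members, dotted lines 2-fold. The brighter ID2 probe set lies at −1.56 and −1.49, BHLHE40 201170_s_at at −0.99 and −0.81, and ID1 at −0.23 and −0.54.

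The hybridization controls were 0.55 higher on mutant SCL SF than on vector SF, and 0.19 higher on mutant SCL Epo than on vector Epo. The 18S probe sets were 0.10 and 0.54 higher, and the 28S ones differed by −0.08 and 0.26. Mutant SCL SF and vector GM-CSF had hybridization controls within 0.04 of each other, but differed by 0.70 in the actin excess, by −0.70 in 18S and by −0.63 in 28S, and in cytokine. Between these 2 arrays ID2 201565_s_at differed by −0.64, ID2 201566_x_at by −0.09, BHLHE40 201170_s_at by −0.52 and ID1 by 0.03. This comparison was added after the data were seen. At 2-fold none of 6 member probe sets was lower there, where 0.0328% of all were, and at 1.5-fold 1 was, where 0.909% were. These 6 also included the ID4 probe set for which no difference is read. The part of array quality in the mutant SCL differences was not tested.

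Among vector cells, both ID2 probe sets, BHLHE40 201170_s_at and ID1 read higher under SF and Epo than under GM-CSF. The culture medium of the line contains GM-CSF. ID2 201565_s_at was 8.11 under SF against 7.20 under GM-CSF, a difference of 0.91 (1.89-fold) and short of 2-fold. Under Epo it was 8.28 against 7.20, a difference of 1.08 (2.12-fold). The second ID2 probe set gave 0.59 and 0.51, BHLHE40 201170_s_at 0.46 and 0.76, and ID1 0.27 and 0.47 for SF and Epo. BHLHE40 201169_s_at, close to the floor, gave 0 and −0.10. The ID1 differences were 1.28 and 2.26 times the estimated spread. From the highest of 12163 probe sets under SF and 12200 under Epo, ID2 201565_s_at ranked number 132 and 310. The second ID2 probe set ranked 848 and 1923, BHLHE40 201170_s_at 1448 and 978, and ID1 2855 and 2089. The SF and Epo differences share the vector GM-CSF array, so they are not 2 observations.

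At 2-fold, 0 of 5 member probe sets compared were higher under SF than under GM-CSF, where 0.617% of all were. Under Epo 1 of 5 was higher, where 3.42% of all were. At 1.5-fold 2 of 5 were higher in each comparison, where 7.06% of all were under SF and 12.8% under Epo. Under SF these were both ID2 probe sets, and under Epo ID2 201565_s_at and BHLHE40 201170_s_at. No member was 1.5-fold lower in either, where 163 of 12163 probe sets were under SF and 303 of 12200 under Epo. The hybridization controls differed by −0.51 on vector SF and by −0.95 on vector Epo from those on vector GM-CSF, 18S by −0.80 and −1.56, 28S by −0.54 and −0.69, and the actin excess by −0.74 and 0.11. Their part in these differences was not tested. Quantile normalization brought the ID2 difference under Epo to 0.74, loess to 0.80 and the mean of both ID2 probe sets to 0.80, each below 2-fold. Quantile normalization also brought ID1 to 0.10 under SF and 0.24 under Epo, and loess brought ID1 to 0.12 and 0.28. The mean of both BHLHE40 probe sets gave 0.23 and 0.33.

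Between SF and Epo every member probe set compared differed by less than 1.5-fold, most of all BHLHE40 201170_s_at in mutant SCL cells. In mutant SCL cells ID2 201565_s_at was 6.56 under SF against 6.79 under Epo, a difference of −0.23, and in vector cells it was 8.11 against 8.28, a difference of −0.17. BHLHE40 201170_s_at was lower under SF in both populations, by −0.47 in mutant SCL cells (2.65 times the estimated spread) and −0.29 in vector cells (1.66 times). ID1 differed by 0.10 in mutant SCL cells and by −0.21 in vector cells. The mean of both BHLHE40 probe sets gave −0.13 in mutant SCL and −0.10 in vector cells, and that of ID2 −0.04 in both. Quantile normalization and loess took ID2 201565_s_at in vector cells to −0.04 and −0.09. No member reached 1.5-fold in either comparison, where 3.8% of all probe sets did in mutant SCL cells and 1.62% in vector cells, both directions together. At 2-fold the shares of all probe sets were 0.233% and 0.0425%.

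The order of the 5 arrays was alike in the brighter ID2 and BHLHE40 probe sets. For ID2 201565_s_at it ran from mutant SCL SF through mutant SCL Epo, vector GM-CSF and vector SF to vector Epo. The gaps between neighbours were 0.23, 0.41, 0.91 and 0.17, and the first and last of these were at or below about 1 estimated spread. For BHLHE40 201170_s_at the order was the same, with gaps of 0.47, 0.05, 0.46 and 0.29, of which the second was below the spread of 0.18. The other ID2 probe set, 201566_x_at, ran from mutant SCL Epo through mutant SCL SF, vector GM-CSF and vector Epo to vector SF. Its first and last gaps, 0.15 and 0.08, were below its spread of 0.18. For ID1 the 3 lowest arrays, mutant SCL Epo, vector GM-CSF and mutant SCL SF, could not be told apart at a spread of 0.21, and vector SF and vector Epo followed.

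**Figure D3:**
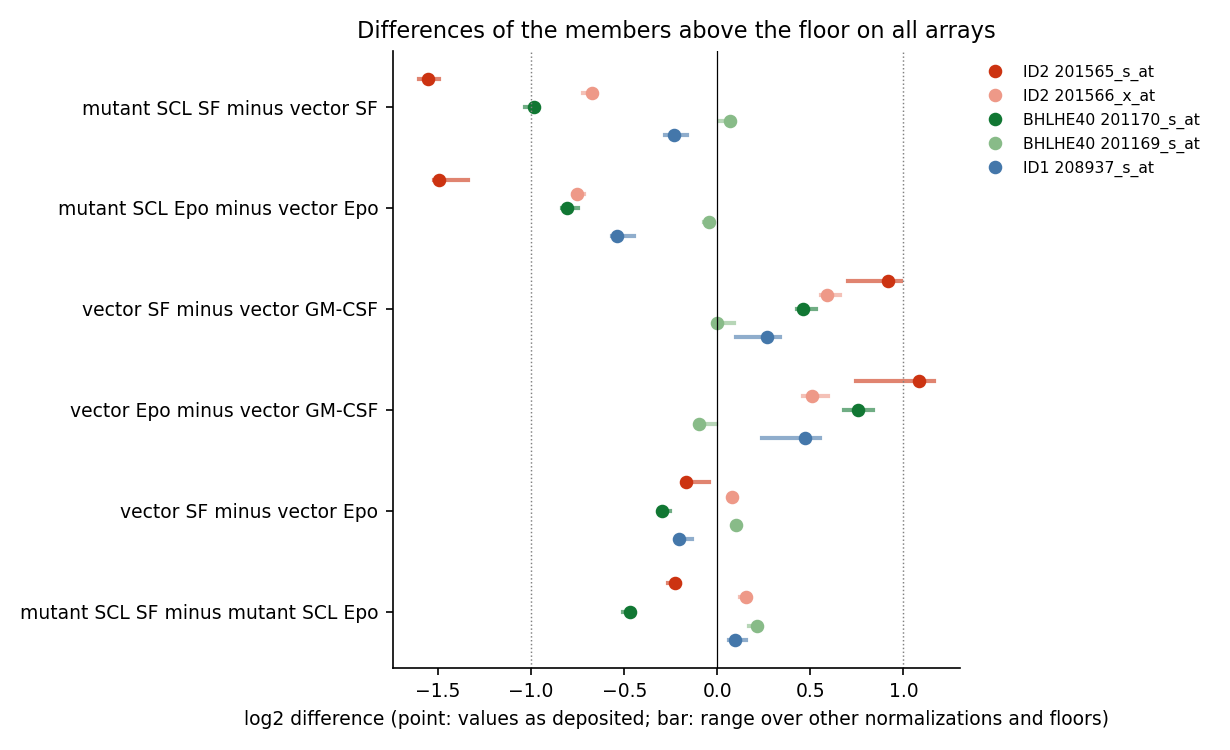
Log2 difference (horizontal axis) of the 5 member probe sets above the floor on all arrays, for the 6 comparisons (vertical axis); points are the values as deposited, bars the range of the same probe set over the other normalizations and floors tried, dotted lines 2-fold. ID2 201565_s_at stays beyond 2-fold lower with mutant SCL in every setting drawn, from −1.61 to −1.49 under SF and from −1.52 to −1.34 under Epo.

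Genes with the most similar pattern to ID2 were sought among 7917 other genes above the floor on all arrays. Likeness was the Euclidean distance between log2 signals, each centred on its own mean over the 5 arrays, which favours genes that vary by the same amount. The nearest 5 outside the members were HEBP1, a haem-binding protein gene (distance 0.48), HLA-DPA1 of MHC class II (0.53), the angiopoietin gene ANGPT2 (0.56), the scavenger receptor gene CD36 (0.62) and PTPRC, the leukocyte antigen CD45 (0.64). HEBP1, the closest, read 6.00 on mutant SCL SF, 6.89 on vector SF, 5.99 on mutant SCL Epo, 7.39 on vector Epo and 6.33 on vector GM-CSF. With the members included, BHLHE40 was number 7 in nearness to ID2, at a distance of 0.66, and ID1 was number 369, at 1.16. A profile with no variation would lie 1.55 from ID2. The PTPRC probe set used here differed with mutant SCL by −1.17 under SF, its 2 others by −1.22 and −0.10, and under Epo by −1.22 with the others at −0.45 and −0.20. The CD36 one differed by −0.69 under SF and −1.53 under Epo, and 1 other above the floor by −0.77 and −0.36. The HLA-DPA1 one differed by −0.90 under SF and −1.29 under Epo, the others above the floor by −0.31 under SF and by −1.58 and −0.14 under Epo. With 5 arrays this likeness is a description.

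Lists of genes related to the members give the surroundings of the ID2 difference, with 1 probe set a gene, that of the highest mean signal. These lists were written with earlier results of the data known. Over all genes compared, 0.355% differed at 2-fold with mutant SCL under SF and 0.371% under Epo. At 1.5-fold the share was taken over probe sets only, of which 3.9% were lower under SF and 2.75% under Epo. Beside such shares, a count of 0 in a list this short says little about its genes.

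The first list holds E proteins, with which ID proteins pair, together with other genes of the SCL complex. Of 12 genes compared, 1 was 2-fold higher with mutant SCL under SF and 1 under Epo, TCF3 in both, and 0 were lower. At 1.5-fold 3 were lower under SF (SSBP3, TCF4 and CBFA2T3) and 0 under Epo. SSBP3, which encodes a partner of LDB1, was 6.10 on mutant SCL SF against 6.80 on vector SF (−0.70), and 6.46 on mutant SCL Epo against 6.54 on vector Epo (−0.08). TCF3, which encodes E proteins, read 9.62 on mutant SCL SF against 7.74 on vector SF, and 7.73 on mutant SCL Epo against 6.60 on vector Epo. Those differences were 1.88 and 1.12 in 202648_at, while the 10 other TCF3 probe sets compared lay between −0.12 and 0.75 under SF and between −0.01 and 0.68 under Epo. The platform's assignment of that probe set was not checked. TCF4, a further E protein gene, differed by −0.70 under SF and 0.00 under Epo, its 5 other probe sets lying between −0.31 and −0.07 under SF and between −0.06 and 0.06 under Epo. TCF12, the third E protein gene, differed by −0.28 and 0.19, and LYL1, a close relative of TAL1, by 0.08 and 0.03. CBFA2T3, a corepressor of the complex, was 7.38 on mutant SCL SF against 8.00 on vector SF (−0.62), and 7.49 on mutant SCL Epo against 7.88 on vector Epo (−0.39). The list median was −0.29 under SF and −0.04 under Epo, where the median of all genes was 0. Among vector cells TAL1 was 8.59 under Epo against 7.57 under GM-CSF (1.02), while its 2 other probe sets gave −0.02 and 0.02. TCF3 202648_at was 2-fold or more different in each remaining comparison too, at −2.25 for SF and −3.39 for Epo against GM-CSF, and 1.89 and 1.14 for SF against Epo in mutant SCL and in vector cells.

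BHLHE41, the closest relative of BHLHE40, was below the floor on every array at 3.17, so no difference is read for it. Of the 7 other helix-loop-helix repressor genes compared (HES, HEY, MXD and related genes), 0 reached 1.5-fold with mutant SCL under SF or Epo, with medians of −0.03 and 0.04. Among 10 clock genes compared, 0 reached 2-fold under either cytokine. At 1.5-fold 1 was higher under SF, NPAS2, and 0 differed under Epo. NPAS2, a partner of the clock activator, was 5.27 on mutant SCL SF against 4.57 on vector SF (0.70), and 4.79 on mutant SCL Epo against 4.74 on vector Epo (0.05). The vector SF signal was close to the floor, and 0 of its 4 other probe sets were compared.

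BMP and SMAD genes belong to the pathway best known to induce ID genes. Of 20 on the array 7 were compared with mutant SCL under each cytokine, 0 at 1.5-fold, with medians of 0.10 and −0.04. BMP6, a ligand, was 6.79 under Epo against 5.81 under GM-CSF in vector cells (0.97), short of 2-fold. Of tissue-restricted basic helix-loop-helix genes other than SCL, 8 were compared under SF and 7 under Epo, 0 at 1.5-fold, with medians of 0.25 and 0.08.

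Among 12 compared genes for proteins that bind ID proteins or set their stability, 0 reached 1.5-fold with mutant SCL under either cytokine. COPS5, a subunit of the COP9 signalosome reported to steady ID1 and ID3 proteins, was 8.76 under Epo against 7.54 under GM-CSF in vector cells (1.22). It was the 1 member of that list at 2-fold in that comparison, where 3.58% of all genes were. USP1, a deubiquitinase that stabilizes ID proteins, differed with mutant SCL by −0.54 under SF and 0.06 under Epo, and by −0.49 and −0.31 in its other probe set.

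Of the cyclin-dependent kinase inhibitor genes, some of which E proteins activate, 5 were compared and 0 reached 2-fold with mutant SCL. At 1.5-fold 1 was lower under SF, CDKN1B, and 0 differed under Epo. CDKN1B was 4.69 on mutant SCL SF against 5.38 on vector SF, and 5.38 on mutant SCL Epo against 5.94 on vector Epo. Those differences were −0.69 and −0.56. It was 1.20 higher under Epo than under GM-CSF in vector cells, with signals of 5.94 and 4.74. CDKN1A, known to be restrained by ID proteins in other cells, was among the 5 and reached 1.5-fold in none of the 6 comparisons.

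**Figure D4:**
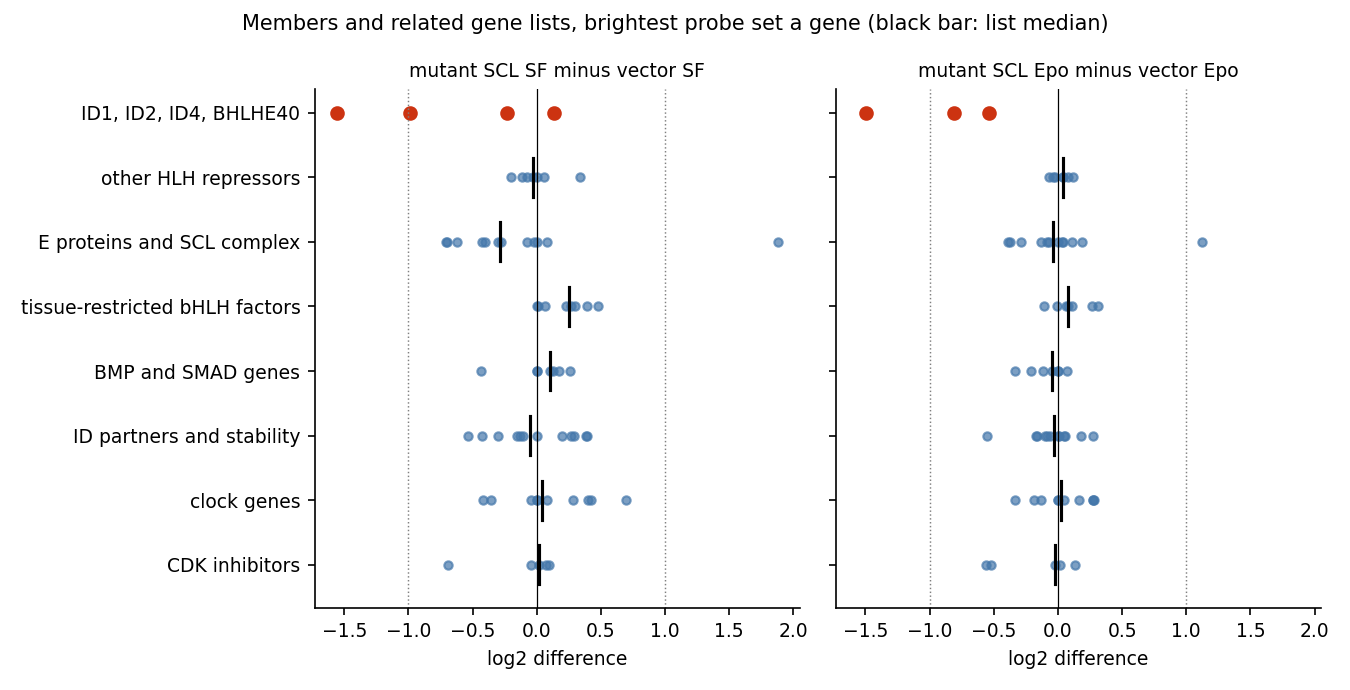
Log2 difference mutant SCL minus vector (horizontal axis) under SF (left) and under Epo (right) for the members (red) and 7 related gene lists (blue, 1 point a gene, the probe set of highest mean signal), with list medians as black bars and 2-fold as dotted lines. ID2 lies at −1.56 and −1.49, and in the E protein and SCL complex row the one point beyond 2-fold is TCF3 at 1.88 and 1.12.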

How the data were processed

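Gene expression was read on 5 Affymetrix oligonucleotide arrays, 1 per group. The authors deposited log2 signals, summarised to a single number for each probe set on each array; their range, 2.08 to 13.77, was the basis for calling them log2. The summary method, its software and any normalization between arrays are not given in the sources used here, and for 58.4% of probe sets some arrays share an identical value. Per the labels' protocols, total RNA was column-purified and biotin-labelled with the maker's small-sample procedure.

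Of 22283 probe sets, 68 were controls, and 19065 of the others had 1 symbol in the platform annotation, for 11963 genes. Values were used as deposited. Differences were taken between single arrays in Python 3.11.15 with numpy 2.4.6 and pandas 2.3.3, and no p-value was computed. A probe set was compared where at least 1 of the 2 arrays was above the floor. The counting rule and the spread estimate were run on simulated data with independent noise of the estimated size and no identical values. That run checks the code, and cannot show that the spread is right for these arrays. Alternatives were quantile normalization, median centring, loess (statsmodels 0.14.6, span 0.3), no floor, a floor at the 50th percentile, 1 or the mean of all probe sets a gene, and a threshold of 1.5-fold. Genes named were all members, list genes at 2-fold or in a fixed set (TCF3, TCF4, TCF12, TAL1, LYL1 and BHLHE41), and the nearest in pattern; BMP6, CBFA2T3, CDKN1A, NPAS2, SSBP3 and USP1 were named after their values were seen. The members and lists were chosen with earlier results of these data known. For arrays, the number per group limits the precision. Upstream sequences of all 5 members came from RefSeq.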

Additional observations from a re-analysis of the deposited data

Results flagged for a closer look

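A pair of differences between single arrays ran in opposite directions in the groups compared, and neither was tested. BHLHE40 201169_s_at was 0.07 higher with mutant SCL under SF and −0.05 under Epo, which are 0.12 apart, within the estimated spread of 0.18 for such a contrast and close to the floor. ID1 differed between SF and Epo by 0.10 in mutant SCL cells and by −0.21 in vector cells, which are 0.30 apart, about the size of the estimated spread of 0.30.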

How the results depend on the processing

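No paired analysis was possible because each group had 1 array, and no array could be left out for the same reason. No member difference past 2-fold changed its sign under the alternatives run. The brighter ID2 probe set stayed past 2-fold lower with mutant SCL under quantile normalization, median centring, loess and both floors. The mean of both ID2 probe sets gave −1.12 under SF and −1.12 under Epo. For Epo against GM-CSF it was 0.74 with quantile normalization, 0.80 with loess and 0.80 with the mean, leaving 0 members at 2-fold in each. BHLHE40 passed 2-fold under SF with median centring (−1.03) and loess (−1.01), which gave 2 members in place of 1, while the mean of its probe sets gave −0.46 under SF and −0.43 under Epo. With vector GM-CSF in place of vector SF, added after the data were seen, ID2 differed by −0.64, with 0 members and 30 probe sets at 2-fold, 26 of them higher. At 1.5-fold the members counted were 3 and 3 with mutant SCL under SF and Epo, and 2 and 2 under SF and Epo against GM-CSF. Over all probe sets, 2-fold counts of 52 and 45 with mutant SCL under SF and Epo, 81 and 438 for SF and Epo against GM-CSF, 5 and 28 for SF against Epo in vector and mutant SCL cells, and 3 under both cytokines became 644, 413, 1022, 1866, 191, 456 and 72 at 1.5-fold. With the mean of all probe sets a gene they were 18, 20, 23, 195, 2, 11 and 1, over fewer features. With 1 probe set a gene, mutant SCL under SF gave 30, SF against GM-CSF 51 and SF against Epo in vector cells 3. Median centring gave 124 for SF against GM-CSF and quantile normalization 3 for SF against Epo in vector cells. No normalization shifted the median of all probe sets by over 0.1. Weak signals, as for ID3, ID4 and BHLHE40 201169_s_at, allow no difference to be read.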

Other observations

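The patterns nearest to the other measured members were different genes from those nearest to ID2. For ID1 they were ITGB1, an integrin subunit gene (distance 0.05), CD99 (0.05) and the V-ATPase subunit gene ATP6V1C1 (0.10), where a profile with no variation would lie 0.45 away. For BHLHE40 they were GCLM of glutathione synthesis (0.18), the lipid phosphatase gene LPIN1 (0.18) and ATP11B, a phospholipid flippase gene (0.19), where a profile with no variation would lie 0.99 away. Other probe sets above the floor of ATP6V1C1 differed with mutant SCL under SF by −0.05 and 0.21, and that of LPIN1 by −0.15. Under Epo 1 other of ATP6V1C1 differed by 0.06 and 1 of LPIN1 by −0.69. The other CD99 probe set differed by −0.35 under SF and −0.61 under Epo. GCLM read 6.38 on mutant SCL SF, 7.21 on vector SF, 6.82 on mutant SCL Epo, 7.49 on vector Epo and 6.72 on vector GM-CSF.

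Several list genes had the identical deposited value on different arrays. The CDKN1B signal of 5.38 was shared by mutant SCL Epo and vector SF, and the ID4 probe set 209291_at held 2.49 on all arrays but vector GM-CSF. Where these ties come from was not determined here.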
